A study of Mus musculus with 32 samples.

Results

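The genes described here encode the proteins of the cytosolic ribosome. They were chosen by symbol alone: Rpl or Rps followed by a digit, plus Rplp0, Rplp1, Rplp2 and Rpsa, without the Rps6k kinases and without symbols marked as pseudogenes. This gave 89 of 24890 symbols in mouse E14 embryonic stem cells. By role, 43 encode large subunit proteins, 31 small subunit proteins and 3 the acidic stalk, which are called the 77 core genes below. A further 11 are paralogs, that is, second copies of a core gene under their own symbol, and 1, Rps19bp1, matched by symbol only and encodes a nucleolar regulator of the deacetylase SIRT1.

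The cells were a wild-type male line grown on gelatin. Both arms received serum, LIF, CHIR99021 (an inhibitor of GSK3) and PD0325901 (an inhibitor of MEK). NrESC cells were also given 10 µM T0901317, an agonist of the liver X receptors, and ESC cells of equal passage were not. Poly(A) RNA was sequenced at passages 0, 2, 4, 6, 8, 10, 12 and 14 with 2 libraries per arm and passage, 32 in all. The series title names a nuclear receptor network, expanded pluripotency and blastoids as its subject. NrESC libraries of passage 0 are labelled as treated, with no length of treatment. Nothing in the labels states that paired libraries are separate cultures of this 1 line, so the p-values may measure technical spread only. A second model therefore used each passage as 1 unit, with paired libraries summed, and its values stand beside the results. The libraries held 24989651 to 50463483 counts. Earlier results of these data showed the NrESC libraries of passage 8 apart from the others, so results are also given without passage 8. Of all genes tested, 69.8% differed there from NrESC of passages 6 and 10. That contrast was chosen from these same data, and no other passage was compared with its neighbours. Its share and p-values therefore do not measure how far passage 8 stood apart.

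A ribosome holds a single copy of nearly every core protein, and cells make these proteins in matched amounts. Their mRNAs are abundant, short, and start with a run of pyrimidines, the TOP motif, through which mTOR signalling sets how often they are translated. The rRNA is transcribed by RNA polymerase I, and many assembly factors fold and trim it in the nucleolus. The acidic stalk (Rplp0, Rplp1 and Rplp2) recruits the elongation factors during translation. Some core genes have an autosomal paralog. Those of X-linked core genes include Rpl10l and Rpl39l, which are best known from male germ cells where the X is silenced.

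The coding sequences of Rpl39l and of its X-linked counterpart Rpl39, a protein lining the tunnel through which the new peptide leaves, are shown because Rpl39l had the most negative fold change of all members. Capitals mark the bases at which the sequences differ, 23 of 156, which leaves 85.3% identity and a longest identical run of 38 bases. Both come from the GENCODE M21 transcripts.
Rpl39l: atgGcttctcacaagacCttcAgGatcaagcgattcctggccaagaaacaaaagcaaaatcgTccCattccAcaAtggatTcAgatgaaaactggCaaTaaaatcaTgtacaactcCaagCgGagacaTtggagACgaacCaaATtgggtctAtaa
Rpl39: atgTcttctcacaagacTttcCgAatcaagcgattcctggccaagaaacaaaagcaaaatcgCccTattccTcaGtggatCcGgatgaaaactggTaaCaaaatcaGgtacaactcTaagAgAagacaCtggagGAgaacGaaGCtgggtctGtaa
No run of 50 bases in Rpl39l transcripts occurred in any other gene, so its reads could be told from those of Rpl39. This does not hold for every member: 30 members shared over 50% of their 50-base runs with another gene. For 4 members, over 50% were shared with another of the 24890 symbols. With such a symbol, Rpl22l1 shared 56.5% of its runs (Gm15421), Rpl26 45.7% (mostly Gm15772), Rplp2 30.7% (Wdr89) and Rpl30 29.7% (Gm12191). The effect of this on their counts was not tested. The coding sequences of Rps27 and its retrogene Rps27rt were identical over 255 bases.

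Promoter windows of RefSeq (build GRCm38.p6), from 50 bases before to 20 bases after the listed start, are shown for 4 genes the results turn on. Rpl13 is shown as a further core gene, with CTTTC shortly before its listed start. Capitals mark each CTTTC as well as each CTTTT and each TTTCC, letters typical of a TOP start.
Rplp2 (chr7:141447601-141447670, + strand): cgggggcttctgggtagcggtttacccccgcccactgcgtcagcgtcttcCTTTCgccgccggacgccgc
Rps2 (chr17:24720013-24720082, + strand): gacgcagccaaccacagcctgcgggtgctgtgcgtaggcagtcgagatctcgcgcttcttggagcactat
Rpl13 (chr8:123102300-123102369, + strand): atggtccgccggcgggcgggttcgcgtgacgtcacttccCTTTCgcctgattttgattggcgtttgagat
Rpl39l (chr16:10170178-10170247, + strand): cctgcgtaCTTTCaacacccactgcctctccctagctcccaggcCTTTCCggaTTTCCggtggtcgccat
Rpl39 (chrX:37085203-37085272, - strand): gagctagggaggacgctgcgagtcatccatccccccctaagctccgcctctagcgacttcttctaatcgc
In the table, 68 members had a promoter, among them 57 core genes. On the coding strand and within 30 bases of the start, CTTTC was found in 36.8% of these core genes and 9.18% of all 27025 listed genes. TTTCC, which overlaps CTTTC within CTTTCC, was found in 33.3% and 10.4%, and CTTTCC itself in 19.3% and 3.40%. CTTTT was found in 14.0% of core genes and 7.51% of all genes. On either strand of the 300-base window, CCGGAAG occurred in 42.1% of core genes against 9.93% of all genes, GGGCGG in 61.4% against 38.2%, and AAGATGGC in 8.77% against 3.19%. TATAAA in the 50 bases before the start, on the coding strand, occurred in 0 core genes and 3.15% of all genes. These matches describe the windows only.

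Most core genes were among the abundant transcripts of both arms. In TPM, which is per length, the 77 core genes had a median of 2813 over the 32 libraries. The highest were Rpl41, which encodes the smallest ribosomal protein, at 8590 TPM, Rps26 at 7903, Rpl32 at 7576, Rps2 at 7352 and Rpl12 at 6476. At the low end stood the paralogs Rpl32l at 0.0784 TPM, Rpl3l, known from heart and skeletal muscle, at 3.88, the retrogene Rpl37rt at 16.7 and Rpl39l at 55.4. The core gene Rps27 was listed at only 15.0 TPM whereas its retrogene Rps27rt was listed at 5304 TPM. Rps27rt had 91.1% of its runs in common with Rps27, so their separate values rest on how the authors' counting divided reads. Other paralogs were far from silent: Rps4l stood at 1999 TPM, Rps27l at 1315, Rpl36al at 1174, Rpl22l1 at 569, Rpl10l at 459 and Rpl7l1 at 221. Rpl32l had 0, 0 and 0.101 CPM as its lowest, median and highest library in NrESC and 0, 0 and 0.0652 CPM in ESC, and was the 1 member that did not pass the filter on low counts. All other results concern 88 members.

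The members took 7.63% ± 0.384 of all counts in NrESC and 7.25% ± 0.346 in ESC (SD over 8 passage means). Single libraries ran from 7.09% to 8.38% in NrESC and from 6.85% to 7.86% in ESC, so the arms overlapped. The share was higher in NrESC at 8 of 8 passages, but unevenly so. It was 7.83% in NrESC and 7.82% in ESC at passage 0. By passage 4 it was 7.75% in NrESC and 6.93% in ESC, and for passage 8 it was 8.35% in NrESC and 7.21% in ESC. The mean difference was 0.379 percentage points, or 0.270 without passage 8. As a share of TPM the members held 26.1% ± 0.851 in NrESC and 25.4% ± 0.747 in ESC, higher in NrESC at 6 of 8 passages. Large subunit genes collected 1.42 ± 0.0256 times the counts of small subunit genes in NrESC and 1.46 ± 0.0156 times in ESC, lower in NrESC at 8 of 8 passages. In these bulk libraries, a change in the share of cells of a type and a change in RNA per cell cannot be told apart.

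**Figure D1:**
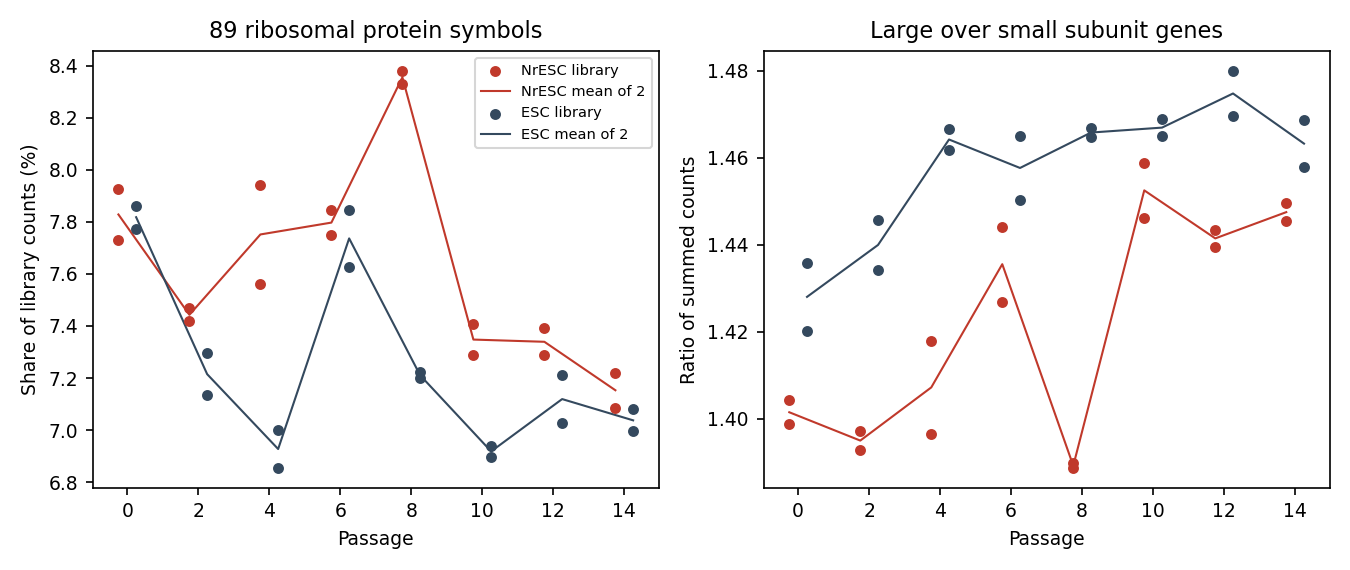
Share of library counts held by the ribosomal protein genes, in percent (left panel), and the ratio of large to small subunit gene counts (right panel), per library against passage number. NrESC reached 8.38% at passage 8, and its ratio of large to small subunit counts averaged 1.42 against 1.46 in ESC.

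The core genes varied together over the 16 combinations of arm and passage. As a description over these 16 group means, which share library scaling and depth, the log2 CPM of a core gene had a median Pearson correlation of 0.816 with the mean of the other core genes, and 41 of 77 exceeded 0.8. The first principal component held 46.1% of their variance. A core gene had a median SD of 0.101 between groups and of 0.027 between paired libraries, on the log2 CPM scale. Rps23, a protein of the decoding centre, followed the rest most closely at 0.979, and Rplp1 stood at 0.952. Among the core genes with the lowest correlations were Rpl30 at -0.0019 and Rpl7a at 0.056. Among all members the lowest were the paralogs Rpl3l at -0.30, Rpl7l1 at -0.29, Rps4l at -0.16 and Rpl39l at -0.06. Relative to each gene's own mean, the core median stood highest in NrESC at passage 8 (0.128 log2 CPM) and lowest in ESC at passage 4 (-0.117). It stood at 0.091 in NrESC and 0.099 in ESC at passage 0, and at -0.062 in NrESC and -0.100 in ESC at passage 14.

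The series set NrESC against ESC of equal passage. In the mean of the 8 passages, 55 of 88 members were higher and 19 lower in NrESC (edgeR quasi-likelihood test, Benjamini-Hochberg adjusted p under 0.05 over all 15036 genes tested). Over all genes tested 39.1% were called higher and 39.8% lower. The differences were small: 84 of 88 were under 0.2 in absolute log2 fold change, with a median of 0.058 for the members and -0.0014 for all genes. With passage as the unit, 26 members were higher and 7 lower, against 28.3% and 27.4% of all genes (55.7% either way), and all 33 had the sign of the first model. Without passage 8, 44 were higher and 18 lower (37.9% and 37.5% of all genes), with a median of 0.034. No member had all 16 NrESC libraries above or below all 16 ESC libraries, which held for 1.66% and 1.32% of all genes. In group means, 16 members were higher in NrESC and 3 lower at 8 of 8 passages, against 20.0% and 18.1% of all genes.

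The direction of this list depended on how libraries were scaled for transcript length. Of the 88 members, 79 lay in the shortest of 4 equal bins of genes by effective length, which is the length RSEM divides by. Genes of that bin that are not members had a median log2 fold change of 0.047, the next bins 0.0091 and -0.0068, and the longest bin -0.049. When each library was rescaled along a smooth curve over effective length, 31 members were higher and 42 lower in NrESC, against 36.3% and 42.5% of all genes, with a median of -0.025. Of the 55 called higher, 31 kept that call, and 10 were then called lower: Rpl10a, Rpl12, Rpl13a, Rpl36a, Rpl7, Rps13, Rps28, Rps3a1, Rps4x and Rps9. All 19 called lower stayed so. With passage as the unit and the length-adjusted scaling, 10 were higher and 25 lower, against 25.9% and 29.9% of all genes.

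**Figure D2:**
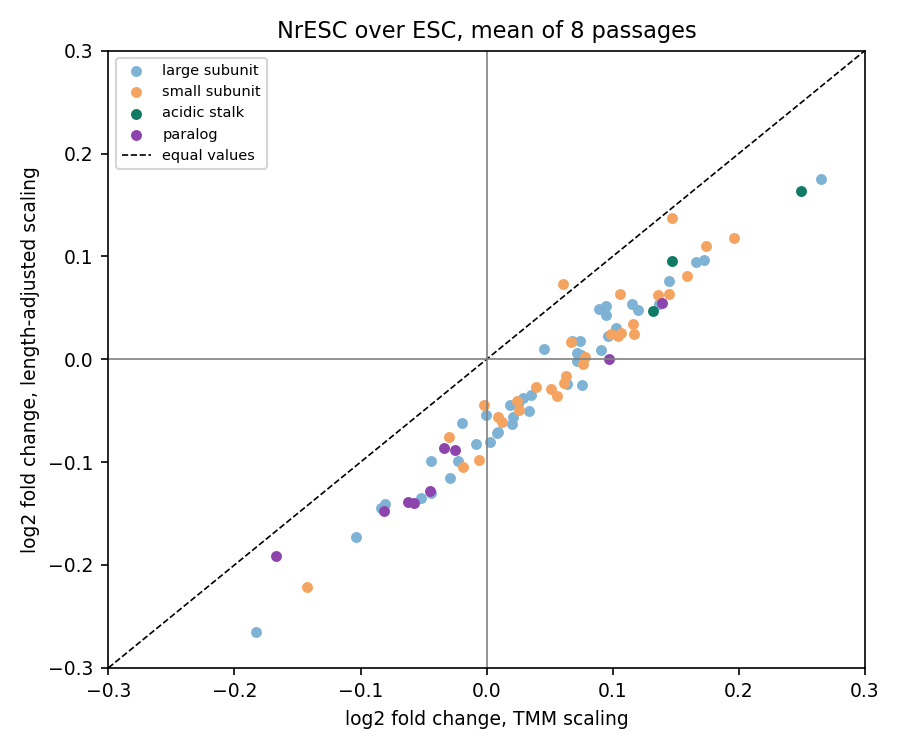
Each point is a member, with its log2 fold change of NrESC over ESC in the mean of 8 passages under TMM scaling on the horizontal axis and under length-adjusted scaling on the vertical axis, both from -0.3 to 0.3, which leaves out Rpl39l and Rps27 (Rps19bp1 is not drawn). The points lie below the diagonal except Rps15a, at 0.06 under TMM and 0.07 after length adjustment, and the 88 members have a median of 0.058 under TMM and -0.025 after length adjustment.

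By role, 26 of 43 large subunit genes were higher and 9 lower (median 0.035), and with length adjustment 13 were higher and 22 lower (median -0.034). The shares of all genes were 39.1% and 39.8%, and with length adjustment 36.3% and 42.5%. Of 31 small subunit genes, 24 were higher and 3 lower (median 0.067), and with length adjustment 14 were higher and 12 lower (median 0.0022). The 3 stalk genes were all higher, with a median of 0.147, of 0.119 without passage 8 and of 0.096 with length adjustment. Of 10 paralogs, 2 were higher and 6 lower (median -0.051), 2 higher and 3 lower without passage 8, and 1 higher and 7 lower with length adjustment. With passage as the unit, 1 paralog was higher and 2 lower, or 30% called against 55.7% of all genes. For comparison, 21 of 78 genes of the mitochondrial ribosome were higher and 32 lower, with a median of -0.023.

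Rplp2, which pairs with Rplp1 on the stalk, had 682, 738 and 827 CPM as its lowest, median and highest library in NrESC, against 569, 617 and 712 CPM in ESC. Only the top of the ESC range reached into the NrESC range. Its mean was 752 ± 35.3 CPM in NrESC and 633 ± 41.3 CPM in ESC (SD, 8 passages), a log2 fold change of 0.25 (SE 0.018, edgeR adjusted p = 3.16e-16, and 0.00025 with passage as the unit). It was 0.16 with length adjustment. Rplp0, which anchors the stalk to the rRNA, had 930.2, 1049 and 1211 CPM in NrESC, against 888, 933 and 992 CPM in ESC. Its top NrESC values were the passage 8 libraries, and the fold change was 0.15 (SE 0.010, edgeR adjusted p = 8.53e-17, and 0.0068 with passage as the unit). Rplp1 had 775, 838 and 1029 CPM in NrESC and 720, 771 and 920.2 CPM in ESC, with a fold change of 0.13 (SE 0.015, edgeR adjusted p = 1.19e-10, and 0.0262 with passage as the unit). With length adjustment Rplp0 stood at 0.10 and Rplp1 at 0.05. Their NrESC group means were above those of ESC at 8 of 8 passages for each of the 3 stalk genes.

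Among all members, Rps27 had the highest fold change, at 0.47 (SE 0.18, edgeR adjusted p = 0.0148), but at levels of 1.09, 1.63 and 4.54 CPM in NrESC, against 0.701, 1.29 and 7.46 CPM in ESC. The ranges overlapped fully, the fold change was not called with passage as the unit (adjusted p = 0.225), without passage 8 (adjusted p = 0.0767) or by DESeq2 (adjusted p = 0.0727), and 63.1% of its runs occur in Rps27rt. Rps27rt itself had 297, 349 and 413 CPM in NrESC and 295, 312 and 419 CPM in ESC, a fold change of 0.10 (edgeR adjusted p = 0.000142, and 0.0318 with passage as the unit) that was not called with length adjustment (fold change 6.46e-05).

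Next came Rpl36, a large subunit protein, with 464, 535 and 589 CPM in NrESC against 401, 441 and 504 CPM in ESC. The arms overlapped only at the edges, and each passage had the higher mean in NrESC. The fold change was 0.27 (SE 0.012, edgeR adjusted p = 1.66e-23, and 0.000132 with passage as the unit), 0.24 without passage 8 and 0.18 with length adjustment. Rpl36 shared 81.1% of its 50-base runs with another gene, so its count is less certain. None of its runs was shared with another of the 24890 symbols. Rps14, a protein of the small subunit platform, had 919, 1045 and 1320.2 CPM in NrESC against 775, 868 and 1306 CPM in ESC. Its highest values in both arms were those of passage 0, where the arms did not differ in the test (-0.01, adjusted p = 0.758), and over the 8 passages the fold change was 0.20 (SE 0.010, edgeR adjusted p = 2.56e-21). Rps2, which lies at the entry of the mRNA channel, had 3089, 3588 and 4077 CPM in NrESC against 2856, 3199 and 3535 CPM in ESC, with a fold change of 0.17 (SE 0.012, edgeR adjusted p = 4.52e-17, and 0.00141 with passage as the unit). Rpl18 of the large subunit had 969.9, 1030.3 and 1125 CPM in NrESC against 848, 904 and 1086 CPM in ESC, with a fold change of 0.17 (SE 0.010, edgeR adjusted p = 6.54e-19, and 0.00177 with passage as the unit). For Rps14, Rps2 and Rpl18 the length-adjusted fold changes were 0.12, 0.11 and 0.10. Rpsa, the small subunit protein first described as a laminin receptor, was higher by 0.11 (edgeR adjusted p = 4.04e-16, and 0.0305 with passage as the unit), but without passage 8 it was not called with passage as the unit (adjusted p = 0.0503).

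Rpl39l fell far more than any other member. In passage order from 0 to 14, its NrESC pairs of libraries had 26.3 and 24.9, 11.6 and 12.1, 9.61 and 10.3, 10.8 and 12.5, 7.26 and 8.49, 10.3 and 8.49, 9.73 and 8.05, and 7.23 and 7.94 CPM. In the same order, the ESC pairs had 37.6 and 35.6, 24.0 and 22.2, 18.9 and 17.3, 32.3 and 30.5, 23.5 and 23.4, 29.4 and 31.2, 22.9 and 24.7, and 24.0 and 25.7 CPM. At each passage both NrESC libraries were below both ESC libraries, and over all passages only the NrESC libraries of passage 0 reached into the ESC range. The means were 11.6 ± 5.86 CPM in NrESC and 26.5 ± 5.88 CPM in ESC (SD, 8 passages). The log2 fold change was -1.27 (SE 0.030, edgeR adjusted p = 1.55e-33). With passage as the unit it was -1.27 (SE 0.125, adjusted p = 1.74e-05), with length adjustment -1.34 and without passage 8 -1.23. From passage 0 to 14 in order, the fold changes were -0.52, -0.97, -0.86, -1.44, -1.57, -1.68, -1.44 and -1.71, so the gap was smallest at the start.

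Its counterpart Rpl39 had 250.1, 290 and 330.2 CPM as lowest, median and highest library in NrESC, against 238, 268 and 361 CPM in ESC. The arms overlapped almost wholly. The fold change of 0.06 (edgeR adjusted p = 0.00955) was not called with passage as the unit (adjusted p = 0.295) or without passage 8 (0.03, adjusted p = 0.32), and was -0.02 with length adjustment. Per length, Rpl39 stood at 2439 TPM and Rpl39l at 55.4 TPM over the 32 libraries.

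**Figure D3:**
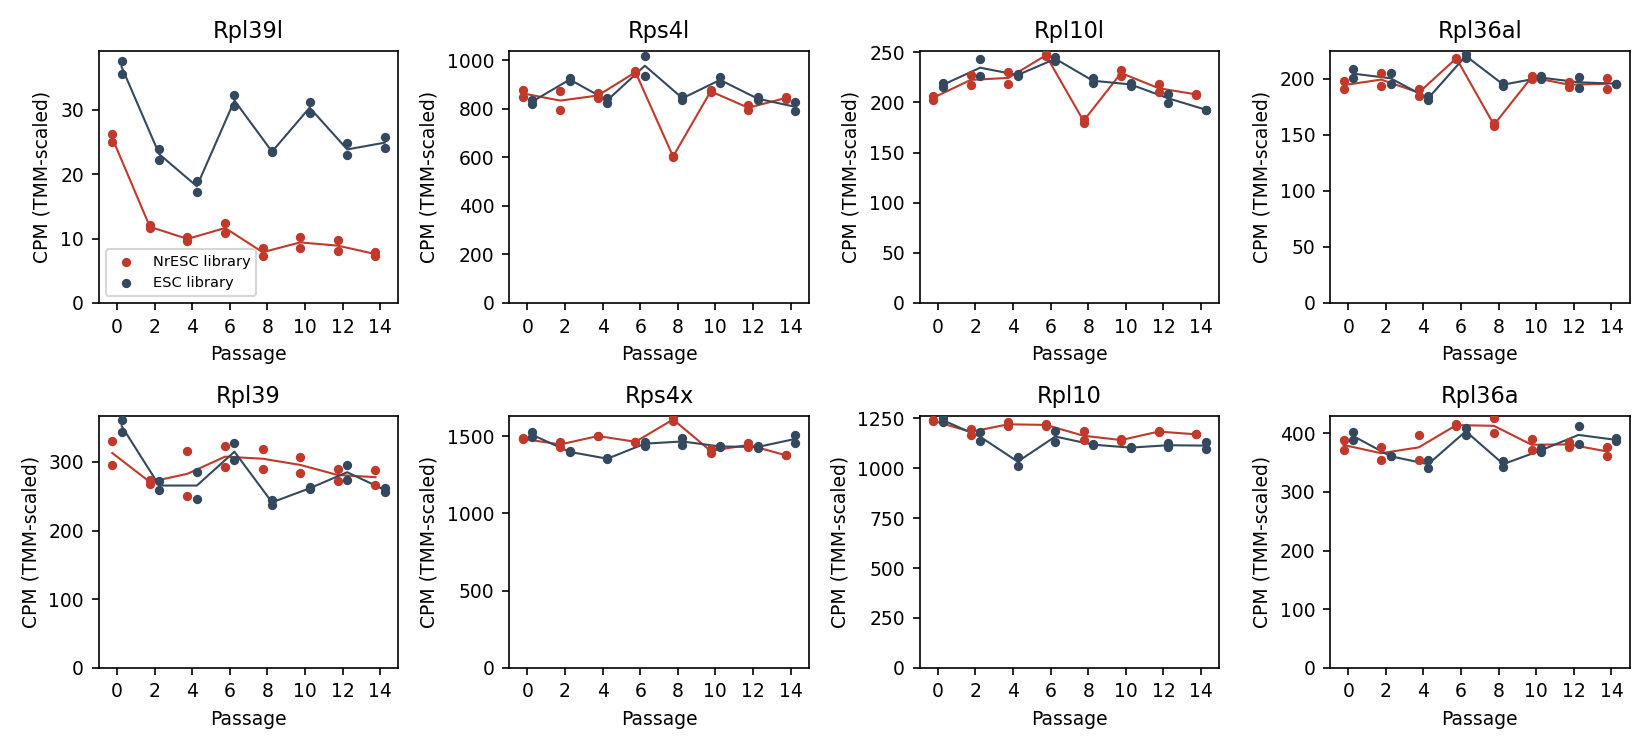
Levels in CPM per library against passage number for 4 paralogs (upper row: Rpl39l, Rps4l, Rpl10l, Rpl36al) above their X-linked counterparts (lower row: Rpl39, Rps4x, Rpl10, Rpl36a). Rpl39l was below ESC at every passage in NrESC, whereas Rps4l, Rpl10l and Rpl36al dipped in NrESC at passage 8, where Rps4l had 607 and 600 CPM.

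Among the other members with the most negative fold changes were Rpl30, Rpl7l1, Rpl7a and Rpl23. Rpl30, a large subunit protein, had 40.8, 46.3 and 51.7 CPM in NrESC, against 44.0, 53.5 and 61.0 CPM in ESC. Its NrESC mean was below that of ESC at 8 of 8 passages, with 45.8 ± 2.86 CPM in NrESC and 52.3 ± 5.60 CPM in ESC. The fold change was -0.18 (SE 0.021, edgeR adjusted p = 1.22e-10, and 0.00177 with passage as the unit). Rpl7l1, a nucleolar homologue of Rpl7 that in human cells takes part in assembly of the large subunit, had 242, 303 and 351 CPM in NrESC, against 299, 331 and 393 CPM in ESC. Its 2 lowest NrESC libraries were those of passage 8, and the fold change was -0.17 (SE 0.0084, edgeR adjusted p = 1.42e-21, and 0.00674 with passage as the unit), or -0.13 without passage 8. Rpl7a had 1448, 1598 and 1746 CPM in NrESC against 1582, 1710.1 and 1857 CPM in ESC, a fold change of -0.10 (passage as the unit, edgeR adjusted p = 0.0101). It shared 81.2% of its runs with another gene, and 6.24% with another of the 24890 symbols. Rpl23, which binds Mdm2 when free of the ribosome, had 953, 1034 and 1141 CPM in NrESC and 1033, 1091 and 1210.4 CPM in ESC, a fold change of -0.08 (passage as the unit, edgeR adjusted p = 0.0224). These 4 genes stayed lower with length adjustment, at -0.26 for Rpl30 and -0.19 for Rpl7l1.

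In the NrESC libraries of passage 8, 47 of 77 core genes stood high while a group of paralogs stood low. Against NrESC of passages 6 and 10, a contrast chosen from these same data, 48 members were higher and 12 lower at passage 8. The shares of all genes were 36.9% and 32.8%, and the members had a median of 0.086. With length adjustment 38 members were higher and 20 lower (34.9% and 35.0% of all genes, median 0.030), among them 37 core genes higher and 13 lower. The 5 most negative were all paralogs. For Rps4l, the autosomal relative of X-linked Rps4x, no complete protein-coding sequence was found in the GENCODE M21 transcripts. Rps4l had 607 and 600 CPM at passage 8. Passage 6 had 955 and 947 CPM, and passage 10 had 876 and 868 CPM. Its difference was -0.59 (SE 0.027, edgeR adjusted p = 1.48e-22), and the ESC libraries of passage 8 had 852 and 835 CPM. Rpl7l1 had 243 and 242 CPM there, against 347 and 351 CPM at passage 6 (306 and 306 CPM at passage 10), a difference of -0.43. Rpl39l differed by -0.41, with the values given above.

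Rpl36al, the autosomal copy of Rpl36a, had 160 and 158 CPM there, against 218 and 218 CPM at passage 6 (203 and 200 CPM at passage 10), a difference of -0.40. Rpl10l, which stands in for Rpl10 in male meiosis, had 180 and 184 CPM there, against 246 and 248 CPM at passage 6 (233 and 226 CPM at passage 10), a difference of -0.39. All 5 were lower with length adjustment too. Rps4x, by contrast, was higher by 0.17 at passage 8, and the highest differences were those of Rps27 at 0.43 (not called, adjusted p = 0.31), Rplp0 at 0.26 and Rpsa at 0.26. Rps4l shared 14.9% of its runs with any other gene and Rpl10l 7.60%. The lower Rps4l in the mean of 8 passages (-0.08) was not called without passage 8 (-0.02, edgeR adjusted p = 0.093), and Rpl10l was at -0.02 with passage 8 and at 0.01 without it. These 2 libraries also had lower embryonic stem cell markers (7 of 9 lower, 2 higher, median -0.56) and higher primitive endoderm markers (6 of 8 higher, 0 lower, median 0.785, summed level 208 CPM, within the ESC range of 160.4 to 255). Of 5 fibroblast markers tested, 4 were higher and 0 lower there (median 0.706), and the markers summed to 49.6 CPM, against a median of 33.5 CPM over all NrESC libraries. Of 8 trophectoderm markers, 4 were higher and 2 lower (median 0.053). Of 6 2-cell-like markers, 0 were higher and 4 lower (median -0.358). The part of these cell states in the paralog values was not tested.

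Among the other paralogs, Rpl22l1, whose level Rpl22 is known to hold down, behaved differently at the start and later. It had 115 and 103 CPM in NrESC and 137 and 137 CPM in ESC at passage 0, a fold change of -0.34 (edgeR adjusted p = 7.4e-08). At passage 8 it had 91.6 and 96.9 CPM in NrESC and 71.6 and 73.3 CPM in ESC, a fold change of 0.38 (edgeR adjusted p = 2.88e-09). Over the 8 passages its fold change of 0.14 was not called with passage as the unit (adjusted p = 0.121). Rps27l, a p53 target, had 190.0, 213 and 232 CPM in NrESC and 198, 216 and 265 CPM in ESC, a fold change of -0.06 that was not called with passage as the unit (adjusted p = 0.145). With passage as the unit it was called without passage 8 (-0.08, edgeR adjusted p = 0.0145) and with length adjustment (-0.15, adjusted p = 0.000485). Rpl3l and Rpl37rt were not called in the mean of 8 passages (-0.03, edgeR adjusted p = 0.61, and -0.06, adjusted p = 0.299), but Rpl37rt was called lower with length adjustment (-0.14, edgeR adjusted p = 0.0177). Rps19bp1, not a ribosomal protein, had 18.3, 23.7 and 26.7 CPM in NrESC and 21.1, 24.3 and 28.3 CPM in ESC, with a fold change of -0.07 (not called with passage as the unit, adjusted p = 0.169).

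By passage, the members' difference between the arms came and went. At passage 0, 10 were higher and 21 lower in NrESC (17.6% and 14.8% of all genes). At passage 2, 21 were higher and 14 lower (24.7% and 23.8% of all genes). At passage 4, 67 were higher and 4 lower (27.4% and 26.9% of all genes, 54.3% either way), with a median of 0.159. At passage 6, 18 were higher and 20 lower (23.6% and 25.1% of all genes, 48.7% either way). Passage 8 was like passage 4, with 65 higher and 6 lower (35.2% and 34.6% of all genes) and a median of 0.186. At passages 10, 12 and 14 the counts were 33 higher and 11 lower, 30 higher and 12 lower, and 25 higher and 13 lower, beside 27.0% and 28.5%, 23.1% and 24.0% (47.1% either way), and 19.7% and 21.3% of all genes. The difference varied among passages for 84 of the 88 members (edgeR F test on 7 contrasts), against 69.4% of all genes. The 4 that were not called were Rpl21, Rpl37a, Rpl37rt and Rps27rt.

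**Figure D4:**
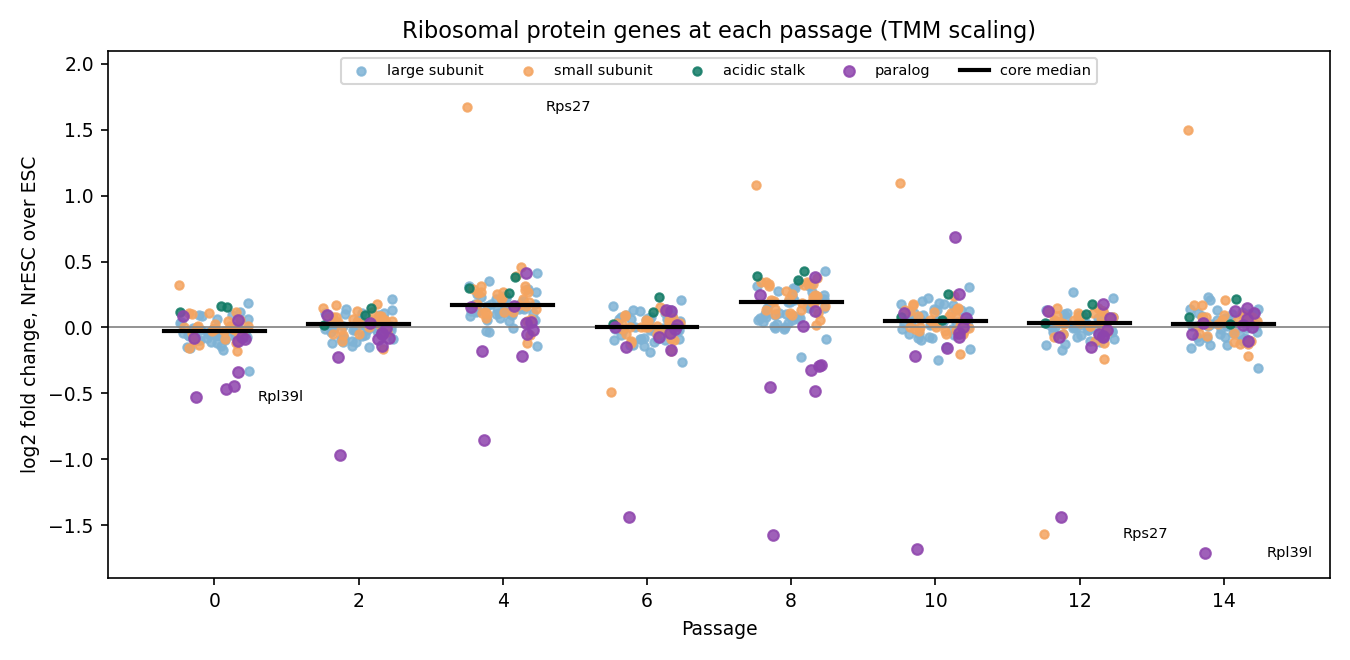
Log2 fold change of NrESC over ESC per member at each passage, with Rpl39l and Rps27 named and Rps19bp1 not drawn. Bars mark the median of the 77 core genes, 0.170 at passage 4 and 0.196 at passage 8. The bulk of the members sits above 0 at these passages, with medians of 0.159 and 0.186 over all 88. Rpl39l lies below 0 at every passage.

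The high counts at passages 4 and 8 also went with length. At passage 4, genes outside the list had medians of 0.109 in the shortest and -0.107 in the longest bin, and at passage 8 of 0.097 and -0.086. With length adjustment, passage 4 gave 32 members higher and 17 lower (24.9% and 27.5% of all genes) with a median of 0.029, and passage 8 gave 27 higher and 31 lower (32.6% and 37.2% of all genes) with a median of -0.0069. At passage 8 under TMM, 30 of 43 large subunit genes were higher and 1 lower, and 29 of 31 small subunit genes were higher and 0 lower. The shares of all genes were 35.2% and 34.6%. With length adjustment, 12 large subunit genes were higher and 18 lower (median -0.034). Of the small subunit genes, 11 were then higher and 5 lower (median 0.044). All 3 stalk genes were higher there with a median of 0.393, which was 0.166 with length adjustment, when all 3 were still called.

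At passage 0 the most negative members were Rpl39l at -0.52 (edgeR adjusted p = 1.07e-07), Rpl37rt at -0.46 (adjusted p = 0.0145) and Rpl3l at -0.44 (not called, adjusted p = 0.0541). The highest were Rps27 at 0.33 (not called, adjusted p = 0.694), Rpl36 at 0.19 (edgeR adjusted p = 1.54e-05) and Rplp0 at 0.16 (edgeR adjusted p = 2.77e-05). At passage 14 the highest were Rps27 at 1.50 (edgeR adjusted p = 0.0105), at 3.86 and 3.31 CPM in NrESC and 1.13 and 1.42 CPM in ESC, then Rpl29 at 0.23 (adjusted p = 2.04e-05) and Rplp2 at 0.22 (adjusted p = 0.000729). DESeq2 did not call Rps27 there (1.49, adjusted p = 0.0701). At passage 12 Rps27 had the opposite sign (-1.57, edgeR adjusted p = 0.00241), with 1.45 and 1.37 CPM in NrESC and 0.701 and 7.46 CPM in ESC, so a single ESC library was high. Among the most negative at passage 14 were Rpl39l at -1.71 and Rpl30 at -0.30 (edgeR adjusted p = 4.15e-05).

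Over passage number, most members had a negative linear slope in both arms, but the course was uneven. Relative to each gene's own mean, the ESC core median was -0.117 log2 CPM at passage 4 and 0.084 at passage 6. In NrESC it was highest at passage 8 (0.128). The slope tests use the spread between paired libraries only, and no slope was fitted with passage as the unit. In NrESC 5 had a positive and 63 a negative slope (28.6% and 31.3% of all genes, 59.9% either way), with a median of -0.0077 log2 per passage. In ESC 2 had a positive and 74 a negative slope (27.2% and 28.2% of all genes), with a median of -0.0092 log2 per passage. This too depended on length: with the length-adjusted scaling, 32 slopes were positive and 28 negative in NrESC (28.7% and 28.5% of all genes) and 21 positive and 27 negative in ESC (26.1% and 25.6% of all genes). The slopes differed between the arms for 16 members with a higher and 9 with a lower slope in NrESC (11.3% and 14.2% of all genes).

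Rpl39l had the largest difference of slopes, with -0.090 log2 per passage in NrESC and -0.011 in ESC (difference -0.079, SE 0.0064, edgeR adjusted p = 4.65e-13). Rpl41 declined by 0.029 log2 per passage in NrESC and by 0.016 in ESC (difference -0.013, edgeR adjusted p = 0.0023). Its libraries of passage 0 had 1328 and 1242 CPM in NrESC and 1300.4 and 1203 CPM in ESC, and those of passage 14 had 883 and 965 CPM in NrESC and 1037 and 1018 CPM in ESC. Rpl38 had a difference of -0.010 that was not called (adjusted p = 0.0882). On the positive side stood Rpl3l, with 0.056 in NrESC and 0.022 in ESC (difference 0.034, edgeR adjusted p = 0.0446), at 1.52 and 1.62 CPM in NrESC and 2.23 and 2.03 CPM in ESC at passage 0. Rpl22l1 had -0.021 in NrESC and -0.047 in ESC (difference 0.026, edgeR adjusted p = 4.62e-07). Rpl26, which in human cells also binds the p53 mRNA, had -0.0027 in NrESC and -0.023 in ESC (difference 0.021, edgeR adjusted p = 0.0031).

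Other slopes at the ends of the ranges were those of Rps14 at -0.026 and Rpl37rt at -0.025 in ESC, of Rps15a at 0.0073 in NrESC (edgeR adjusted p = 0.0023) and of Rpl14 at 0.011 in ESC (edgeR adjusted p = 5.18e-08). With length adjustment the NrESC slope of Rps15a (0.0021, edgeR adjusted p = 0.405) and the ESC slope of Rpl37rt (-0.015, adjusted p = 0.142) were not called. Rps27 had 0.054 in NrESC and 0.057 in ESC, neither called (edgeR adjusted p = 0.0593 and 0.113).

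While the ribosomal protein genes split by gene and by scaling, the genes that build ribosomes were mostly lower in NrESC under both scalings in the mean of 8 passages. Of 48 small subunit assembly factors, 41 were lower and 2 higher (median -0.144, and -0.150 with length adjustment), 32 and 1 with passage as the unit. Of 46 large subunit assembly factors, 36 were lower and 4 higher (median -0.152, and -0.164 with length adjustment), 30 and 3 with passage as the unit. Of 14 genes of RNA polymerase I and its factors, 11 were lower and 1 higher (median -0.161, and -0.188 with length adjustment), 9 and 1 with passage as the unit. Without passage 8, 40 of 48, 35 of 46 and 10 of 14 were lower, and at passage 8 alone the medians were -0.309, -0.292 and -0.327. The gap was smaller at passage 14, with 11 of 48, 10 of 46 and 6 of 14 lower and medians of -0.033, -0.033 and -0.041, beside 21.3% of all genes called lower there. All genes tested had a median of -0.0014, with 39.8% called lower.

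Among these genes, Polr1a, the largest subunit of RNA polymerase I, averaged 356 ± 22.9 CPM in NrESC and 421 ± 28.8 CPM in ESC (log2 fold change -0.24, edgeR adjusted p = 6.77e-26, lower at 8 of 8 passages). Utp20, a scaffold of the small subunit processome, averaged 308 ± 39.3 CPM in NrESC and 377 ± 40.7 CPM in ESC (-0.30). Tsr1, a factor of late small subunit assembly, averaged 173 ± 13.7 CPM in NrESC and 217 ± 26.2 CPM in ESC (-0.32). Mdn1, the giant ATPase that strips assembly factors from the large subunit precursor, averaged 474 ± 66.5 CPM in NrESC and 604 ± 54.0 CPM in ESC (-0.36, edgeR adjusted p = 4.37e-34). The second polymerase subunit Polr1b (-0.31), the initiation factor Rrn3 (-0.22), the snoRNP protein Nop56 (-0.26), the helicase Dhx37 (-0.32), the SUMO protease Senp3 (-0.28), the methyltransferase Ftsj3 (-0.31) and the GTPase Gnl3 (-0.28) were also lower, each at 8 of 8 passages. Of 6 genes listed as chaperones of ribosomal proteins, 4 were lower and 2 higher (39.8% and 39.1% of all genes). Tsr2, the carrier of Rps26, stood at -0.29, Heatr3 at -0.20 and Grwd1 at -0.19, whereas Bccip was higher by 0.09. The other lower gene, Nacad, averaged only 0.902 CPM in NrESC and 1.04 CPM in ESC. It was not called with passage as the unit (edgeR adjusted p = 0.112).

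**Figure D5:**
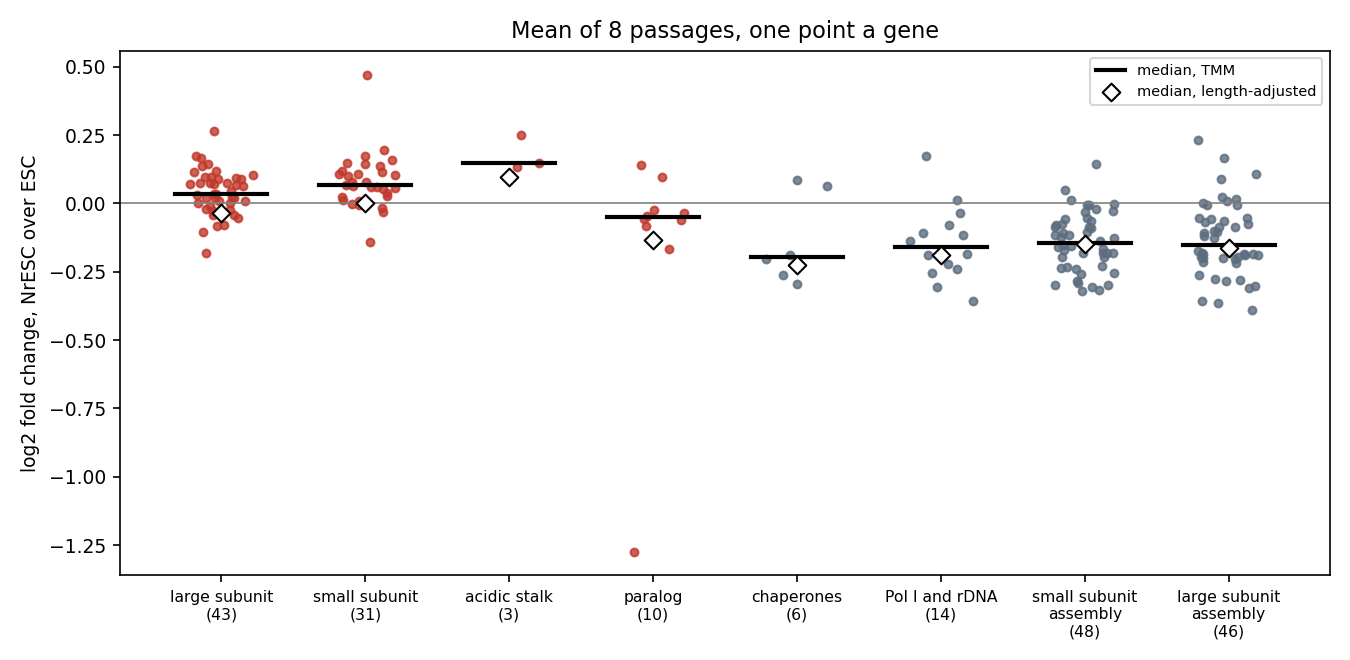
Log2 fold change of NrESC over ESC in the mean of 8 passages per gene, grouped by role and list, with the median under TMM scaling (bar) and under length-adjusted scaling (diamond). The assembly and RNA polymerase I lists have medians between -0.144 and -0.188 under both scalings, the large and small subunit genes have medians of 0.035 and 0.067 under TMM and of -0.034 and 0.0022 after length adjustment, and the stalk has 0.147 and 0.096.

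Of the 3 ribosomal proteins listed under other symbols, Rack1 was higher by 0.11 and Fau by 0.04. Of this pair only Rack1 was called with passage as the unit (edgeR adjusted p = 0.0129). With length adjustment Rack1 stood at 0.05 and Fau at -0.04, and none of the 3 was then called with passage as the unit. Of 20 other TOP RNAs, mostly of the translation machinery but including Snhg1, Snhg8 and Snhg12, 4 were higher and 11 lower (median -0.036). The shares of all genes were 39.1% and 39.8%. With length adjustment 3 were higher and 16 lower (median -0.077), beside 36.3% and 42.5% of all genes. With passage as the unit 2 were higher and 6 lower, or 1 and 9 with length adjustment as well. The elongation factor Eef1a1 averaged 12571 ± 867 CPM in NrESC and 11184 ± 1149 CPM in ESC (0.17), while the nucleolar chaperone Npm1 averaged 2392 ± 182 CPM in NrESC and 3057 ± 209 CPM in ESC (-0.35), and Eif3l (-0.23) and Nap1l1 (-0.23) were lower.

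Of 21 genes that control growth and ribosome synthesis, 8 were higher and 11 lower (median -0.044). Myc, which drives transcription of ribosome genes, averaged 9.83 ± 4.28 CPM in NrESC and 21.6 ± 10.6 CPM in ESC (-1.18, edgeR adjusted p = 1.39e-32, and 0.000337 with passage as the unit). Mycn had a fold change of -0.33. Genes that restrain mTOR signalling or its output did not move one way. Ddit4 averaged 120.4 ± 34.3 CPM in NrESC and 74.1 ± 29.5 CPM in ESC (0.74), and the translation repressor Eif4ebp1 averaged 505 ± 41.5 CPM in NrESC and 395 ± 28.8 CPM in ESC (0.35). Akt1s1, an inhibitor within mTORC1, was lower (-0.39, edgeR adjusted p = 9.62e-18), as was Tsc1 (-0.08, adjusted p = 4.62e-06), and Tsc2 was not called (-0.01, adjusted p = 0.54). Their part in the values above was not tested.

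The labelled cell type was checked by markers: 9 embryonic stem cell markers summed to 7225 to 8878 CPM in NrESC libraries and 7397 to 8580 CPM in ESC libraries, with 4 higher and 5 lower. Fibroblast markers summed to 26.2 to 50.5 CPM in NrESC and 19.8 to 35.0 CPM in ESC, with 5 of 9 under 1 CPM, 1 at 0 in all libraries, and 3 of 5 tested higher. Primitive endoderm markers summed to 141 to 210.1 CPM in NrESC and 160.4 to 255 CPM in ESC (1 higher, 3 lower of 8), and trophectoderm markers to 139 to 184 CPM in NrESC and 103 to 138 CPM in ESC (3 higher, 3 lower of 8). 2-cell-like markers, which mark a rare population in such cultures, summed to 9.55 to 32.3 CPM in NrESC and 20.8 to 167 CPM in ESC, with 6 of 6 lower (median -2.09). The part of these other cell states in the members' values was not tested.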

How the data were processed

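Poly(A) RNA of 32 libraries was used as deposited by the authors: expected counts per gene symbol, not normalized, and TPM, scaled by the authors for length and to an equal sum. Both were made with RSEM, per the file headers. The submitters' processing notes list STAR, RSEM, HTSeq 0.12.4, Cufflinks 2.2.1, edgeR, DESeq2 and build mm9, and the annotation and strand setting are not given in the sources used here. Of the count values, 0.837% were fractional, and all were rounded.

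Computed here, with R 4.3.3: edgeR 4.0.16 quasi-likelihood tests on the counts with 16 group means, TMM factors (0.979 to 1.03) and the filterByExpr filter (15036 genes). The Benjamini-Hochberg threshold was 0.05, and the SE covers paired libraries only. In the model with passage as the unit, paired libraries were summed (14804 genes, 7 residual degrees of freedom). Length-adjusted scaling subtracted per library a lowess curve (span 0.3) over effective length, taken as counts divided by TPM. DESeq2 1.42.0 and limma 3.58.1, the second on log2(TPM + 1), were alternatives. CPM is TMM-scaled. All models were tested on simulated data. Paired libraries differed beyond counting noise (chi-square per degree of freedom 1.71 to 3.31). Correlations over equal library numbers of both arms ran from -0.114 to 0.145, so the numbers were not taken to pair libraries.

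Members and gene lists were chosen with earlier results of these data known. Named members are the 6 highest and 6 lowest fold changes over 8 passages, the 3 highest and 3 lowest of each slope and of passages 0, 14 and 8, the paralogs and their counterparts, the stalk, and the ends of the TPM and correlation ranks. From each other list up to 4 genes of smallest p could be named. The growth control list went beyond this rule. Genes that restrain mTOR signalling or its output were named there too, among them Tsc2, which was not called. Some genes that this rule names are not reported here. Shared sequence was counted in GENCODE M21 transcripts, with 89 of 89 members matched. No deposited column was left unused.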

Additional observations from a re-analysis of the deposited data

Results flagged for a closer look

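The difference between NrESC and ESC varied among passages for 84 of the 88 members tested (edgeR F test over 8 passages, adjusted p under 0.05), beside 69.4% of all genes. For 5 of the members named for their slopes, the slope over passage number also differed between the arms. As slope in NrESC minus slope in ESC, in log2 per passage, Rpl39l had -0.079 (SE 0.0064, edgeR adjusted p = 4.65e-13) and Rpl41 had -0.013 (SE 0.0032, adjusted p = 0.0023). Rpl3l had 0.034 (SE 0.013, edgeR adjusted p = 0.0446), Rpl22l1 had 0.026 (SE 0.0036, adjusted p = 4.62e-07) and Rpl26 had 0.021 (SE 0.0054, adjusted p = 0.0031). These SEs cover the spread between paired libraries only. Rpl3l stood at 1.48 to 3.35 CPM in all libraries, and its difference was not called without the filter on low counts (edgeR adjusted p = 0.0675) or by DESeq2 (adjusted p = 0.13). Groups of 2 libraries were too small for a test of outlying libraries.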

How the results depend on the processing

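Length-adjusted scaling moved the counts of members most. Higher and lower members became 31 and 42 in the mean of 8 passages (55 and 19 under TMM), and 10 and 25 with passage as the unit (26 and 7). For passages 2, 4, 8, 12 and 14 in order, they became 10 and 27, 32 and 17, 27 and 31, 11 and 31, and 15 and 26. The shares of all genes were, in the same order, 22.4% and 26.6%, 24.9% and 27.5%, 32.6% and 37.2%, 21.8% and 25.8%, and 18.7% and 22.6%. Lower members became 37 at passage 0 (17.5% of all genes), 23 for passage 10 (29.8%) and 20 for NrESC passage 8 against its neighbours (35.0%). Positive and negative slopes became 32 and 28 in NrESC and 21 and 27 in ESC. DESeq2 gave 6 higher members at passage 0, 13 at passage 2 and 1 positive slope in ESC, and without passage 8 there was also 1 positive ESC slope. By limma on log2(TPM + 1), 39 members were higher and 23 lower in the mean of 8 passages, with a median of 0.024 (0.058 under TMM). Of the members called higher, 10 were called lower with length adjustment, as listed above, and Rpl39 (0.06) stood at -0.02. Among members named by rank, fold changes over the 8 passages changed sign for Rpl12 (0.02 under TMM, -0.056 length-adjusted, -0.0042 without passage 8, -0.0052 by limma with either pseudocount), for Rpl32 (-0.062) and Rpl38 (-0.025) with length adjustment, and for Rpl10l (0.015) without passage 8. The causes were not tested. DESeq2 size factors and TMM factors computed without the members kept every count within 1.5 times.

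Leaving out 1 library at a time gave 47 to 57 higher and 13 to 20 lower members in the mean of 8 passages. At single passages the ranges were 6 to 11 higher and 13 to 27 lower at passage 0 (6 without ESC replicate 2, 13 without NrESC replicate 2 or ESC replicate 1), and 7 to 23 higher at passage 2 (11 without NrESC replicate 1, 7 without ESC replicate 2). There were 2 to 6 lower at passage 4 (2 without replicate 1 of either arm), and 11 to 21 higher and 13 to 23 lower at passage 6 (11 without ESC replicate 2, 13 without ESC replicate 1). At passage 10, 7 to 12 were lower (7 without NrESC replicate 1), at passage 12, 14 to 32 were higher and 7 to 13 lower (14 without ESC replicate 1, 7 without replicate 2 of either arm), and at passage 14, 5 to 15 were lower (7 without NrESC replicate 1, 5 without ESC replicate 1). Positive ESC slopes numbered 1 to 2. Lower slope differences numbered 3 to 11: 3 without NrESC replicate 1 of passage 14, 4 without NrESC replicate 1 of passage 2 or ESC replicate 2 of passage 0, and 5 without ESC replicate 2 of passage 10 or 12 or ESC replicate 1 of passage 14.

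With a replicate block, 54 members were higher and 19 lower in the mean of 8 passages, and 65 and 6 at passage 8. Slopes were positive and negative for 6 and 63 in NrESC and 2 and 73 in ESC, and the slope difference for 13 and 9, where that of Rpl3l had an edgeR adjusted p of 0.051, that of Rpl12 over the 8 passages 0.0504 and the NrESC slope of Rps27 0.0406. The block changed no other call of a named result. Rps27, Rpl3l and Rpl37rt stood under 8 CPM in every library, and the part of depth in their values was not tested.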
